A study of Mus musculus with 6 samples.

Results

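Mouse wound scars with high follicle regeneration were compared with scars with low regeneration taken at the same day after wound closure. The comparison covered 15191 genes of the 20255 that had an array row with a single gene symbol, after the 25% of genes with the lowest mean level (under 5.60 log2 units) had been left out. The samples were 6 whole-skin biopsies of scars, 3 of them of the high and 3 of the low regeneration group, with 1 of each group at days 4, 6 and 9. In the design text the 3 low mice are described as having formed no follicles, whereas their labels give only a low regeneration level, and the labels name no strain, sex, age or treatment and do not tell if an animal gave more than 1 sample. Levels are in log2 units, so a difference of 1 unit is a 2-fold difference, and every difference is high minus low within the day pair.

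Large full-thickness wounds in adult mice close and leave a scar, in whose centre new hair follicles can form, a process called wound-induced hair neogenesis. A new follicle starts as a thickening of the epidermis, the placode, which exchanges Wnt, hedgehog, fibroblast growth factor and bone morphogenetic protein signals with a cluster of dermal cells below it, the later dermal papilla. Its matrix cells then build the inner root sheath and the hair shaft, each with keratins of its own, and the shaft also with keratin-associated proteins. Skin also holds immune cells, and wounded tissue expresses early response genes, which are induced without new protein synthesis, as well as genes induced by interferons, the secreted proteins of antiviral defence.

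The tissue label held at the level of its defining genes. Krt1 and Krt10, keratins of the suprabasal epidermis, lay at 13.64, 13.74 and 13.72 and at 12.41, 12.36 and 12.41 in the high samples of days 4, 6 and 9, and at 13.63, 13.77 and 13.78 and at 12.36, 12.53 and 12.54 in the low samples. Col1a1, the main fibrillar collagen of dermis, was at 13.18, 13.31 and 13.24 in the high samples and at 13.27, 13.29 and 13.23 in the low samples. These genes differed by at most 0.17 units within any pair.

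Single samples stood apart in ways that the groups do not share. The high sample of day 4 lay at least 1 unit above the other 5 samples in 89 genes, 55 of them hair keratins and other members of the 3 hair lists used here, and the low sample of day 9 lay at least 1 unit below the other 5 in 38 genes, 23 of them from the same lists. In the other 4 samples these counts were 0 or 1 gene above and 0 to 8 below. The 3 hair lists, of the inner root sheath and companion layer, the hair shaft and the keratin-associated proteins, hold 0.461% of tested genes. Xist, the RNA that silences an X chromosome in female cells, was at 5.82, 5.75 and 5.82 in the high samples and at 5.79, 7.30 and 12.77 in the low samples of days 4, 6 and 9. The Y-linked genes Uty, Kdm5d and Eif2s3y were at 3.88, 4.98 and 4.36 in the low sample of day 9 and at 7.10 or above in the other 5 samples. In the day 9 pair the sex of the mice and the regeneration group cannot be told apart. H2-Ob, an MHC class II chaperone subunit, was at 6.16 in the high sample of day 4 against 7.68 to 8.07 elsewhere, and Skint3, an immunoglobulin-like gene of keratinocytes, was at 4.01 in the low sample of day 6 against 9.02 to 10.35 elsewhere. In whole-skin samples, fewer cells of a type and less RNA per cell cannot be told apart. Why single samples stood apart in these genes was not tested, and the labels name no strain.

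**Figure D1:**
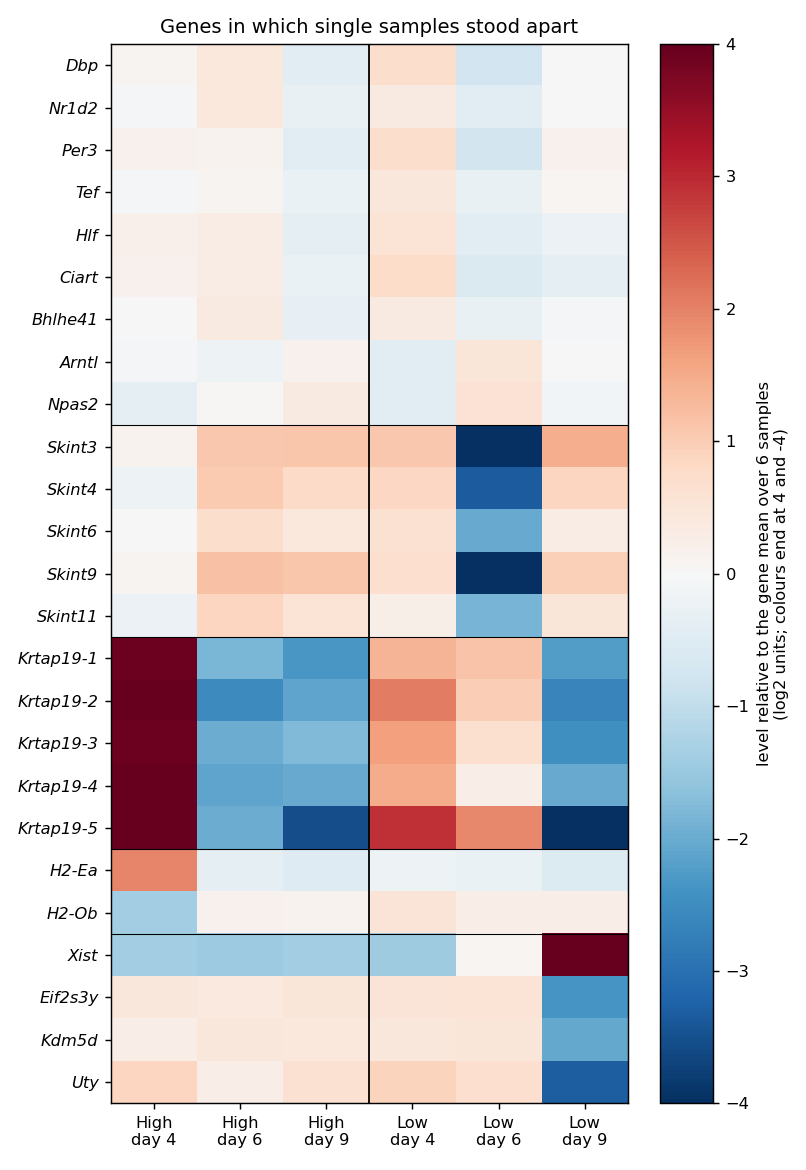
Levels of 25 genes in which single samples stood apart, as differences from each gene's mean over the 6 samples in log2 units (colour), with high samples on the left and low samples on the right and days in order within each group. The low sample of day 6 is lowest in the 5 Skint genes, the high sample of day 4 is highest in the Krtap19 genes and H2-Ea, and the low sample of day 9 is highest in Xist and lowest in 3 Y-linked genes.

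With day as a block in limma, 8 genes passed at an adjusted p under 0.05, 0.0527% of those tested, and all 8 were higher in high-regeneration scars. They were Nr4a1, Ptgs2, Fos, Fosb, Nr4a3, Ifrd1, Shh and Cxcl1, and for each the lowest of the 3 high samples lay above the highest of the 3 low samples. Non-overlap in that direction was seen for 5.08% of all tested genes. Without the day 4 pair or without the day 9 pair limma called 0 genes (1486 and 1032 had an unadjusted p under 0.05), and without the day 6 pair 35 did, 5 of them among these 8. In limma 0 genes passed after quantile normalization (1515 at an unadjusted p under 0.05, lowest adjusted p 0.0545) and 0 with all 20255 genes tested (1798 and 0.072). With day as a block, the unadjusted p was under 0.05 for 10.1% of the tested genes, 4.89% with a higher and 5.17% with a lower level.

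Fos and Fosb encode subunits of AP-1, a transcription factor built of Fos and Jun family proteins. Fos was at 11.48, 11.63 and 11.41 in the high samples of days 4, 6 and 9 and at 10.40, 10.47 and 10.24 in the low samples, a mean difference of 1.14 ± 0.06 (SE; limma adjusted p = 0.0381). Fosb was at 11.43, 11.57 and 11.37 in the high samples and at 9.96, 9.86 and 9.97 in the low samples, 2.88-fold higher on average (adjusted p = 0.0381). The gap between the groups in either gene was several times the spread over days within a group.

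Nr4a1 and Nr4a3 encode orphan nuclear receptors of the NR4A family, which are controlled mainly by how much of them is made. Nr4a1 was at 9.49, 9.49 and 9.43 in the high samples and at 7.89, 7.87 and 7.99 in the low samples, with differences of 1.60, 1.61 and 1.44. Nr4a3 was at 8.56, 8.51 and 8.83 in the high samples and at 7.48, 7.37 and 7.65 in the low samples, with differences of 1.08, 1.14 and 1.19. Both had an adjusted p of 0.0381 in limma. Nr4a1 had the lowest unadjusted p of all genes tested, and its levels hardly moved with day in either group.

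Ptgs2 encodes cyclooxygenase 2, the inducible enzyme of prostaglandin synthesis. It was at 8.65, 8.86 and 9.44 in the high samples and at 6.56, 6.93 and 7.77 in the low samples, higher at each later day in both groups. Its mean difference, 1.90 ± 0.10 (SE), was the largest of the 8, a 3.72-fold higher level (limma adjusted p = 0.0381). Of the 17 tested genes of the prostaglandin pathway Ptgs2 alone passed. Ptges, the E2 synthase that acts after cyclooxygenase, differed by -0.35, -0.37 and -0.11, and the E2 receptor gene Ptger4 by 0.15, 0.68 and 0.38 (adjusted p 0.411 and 0.409).

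Shh encodes sonic hedgehog, a ligand made by the placode and the hair matrix. It was at 7.40, 7.02 and 7.01 in the high samples and at 6.12, 5.89 and 5.58 in the low samples, 2.42-fold higher on average (adjusted p = 0.0476). Cxcl1, which encodes a chemokine that draws neutrophils, was at 9.30, 9.16 and 9.15 in the high samples and at 8.16, 8.19 and 8.04 in the low samples. Ifrd1, a regulator of transcription named for its interferon-related sequence, was at 8.41, 8.24 and 8.40 in the high samples and at 7.38, 7.22 and 7.47 in the low samples. Cxcl1 and Ifrd1 were 2.11-fold and 1.99-fold higher (adjusted p = 0.0476 for each in limma).

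**Figure D2:**
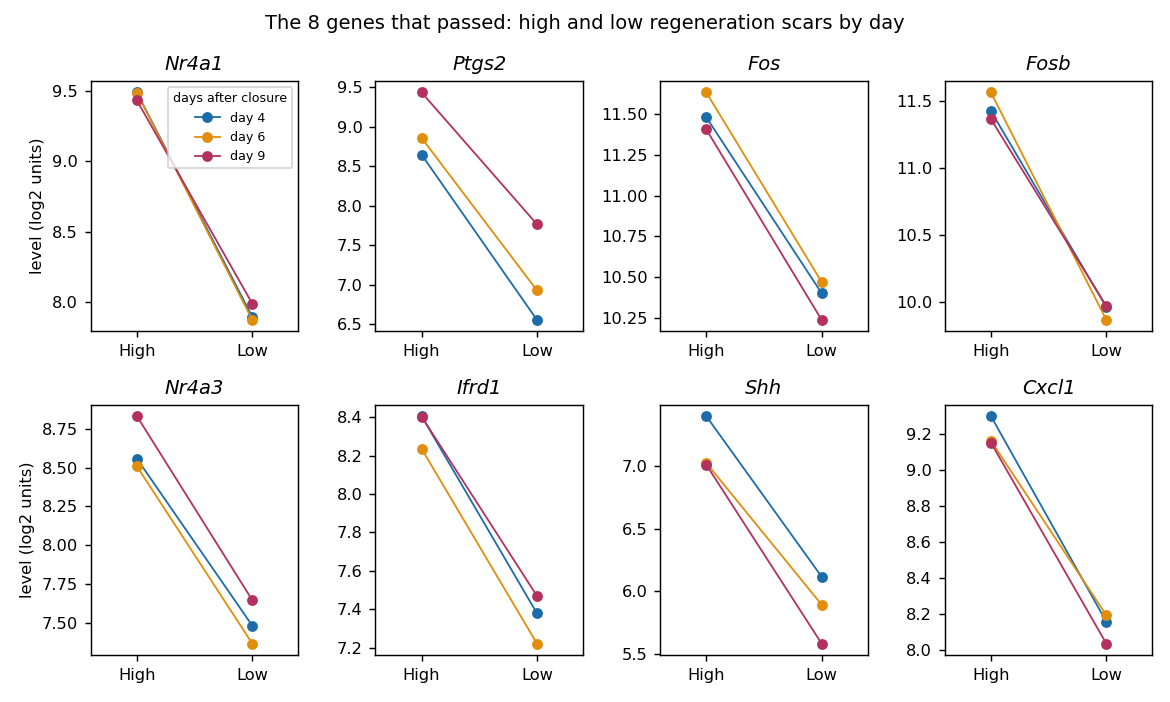
Levels in log2 units of the 8 genes that passed, with the high sample on the left and the low sample on the right of each panel, and a line joining the samples of one day pair (blue day 4, orange day 6, purple-red day 9). In every panel the 3 high samples lie above the 3 low samples, from Ifrd1 (mean difference 0.99) to Ptgs2 (mean difference 1.90).

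The 250 bases before the RefSeq starts of these genes (GRCm38.p6) were searched for known motifs of transcription factors. Capitals mark TGACG on either strand (CGTCA on the printed strand), the core of the cAMP response element, which CREB and ATF proteins are known to bind. Windows were on hand for 7 of the 8 genes, and 6 of the 7 hold TGACG, with 4 copies each in Nr4a1 and Nr4a3, 2 each in Fos and Cxcl1, 1 each in Fosb and Ifrd1 and 0 in Ptgs2. Of the windows of all tested genes 24.1% hold it, of all RefSeq windows 17.8%, and of the windows of the 7 early response lists described next 44%. The full palindrome TGACGTCA is in 0 of the 7 windows. A kappa B site, the motif of NF-kappa B, is in 3 of the 7 (42.9%), those of Fos, Fosb and Cxcl1. Of the windows of all tested genes 4.69% hold a kappa B site. The AP-1 site TGANTCA, the CArG box and the interferon element described below are in 0 of the 7. A match is a description of letters and does not show that a factor binds there. The windows of the genes with 2 or more copies are chr12:85473640-85473889 on the plus strand for Fos, chr15:101266596-101266845 on the plus strand for Nr4a1, chr4:48045055-48045304 on the plus strand for Nr4a3 and chr5:90890995-90891244 on the plus strand for Cxcl1.
Fos: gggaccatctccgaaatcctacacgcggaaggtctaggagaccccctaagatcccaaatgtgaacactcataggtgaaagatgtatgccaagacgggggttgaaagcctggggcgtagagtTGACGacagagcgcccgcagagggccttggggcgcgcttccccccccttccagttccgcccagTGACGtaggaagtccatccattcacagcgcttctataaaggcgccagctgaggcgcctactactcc
Nr4a1: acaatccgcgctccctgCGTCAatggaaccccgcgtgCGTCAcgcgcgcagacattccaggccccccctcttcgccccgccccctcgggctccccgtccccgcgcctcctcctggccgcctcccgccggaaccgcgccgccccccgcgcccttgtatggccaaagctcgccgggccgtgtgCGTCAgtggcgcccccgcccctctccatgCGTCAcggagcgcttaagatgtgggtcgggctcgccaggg
Nr4a3: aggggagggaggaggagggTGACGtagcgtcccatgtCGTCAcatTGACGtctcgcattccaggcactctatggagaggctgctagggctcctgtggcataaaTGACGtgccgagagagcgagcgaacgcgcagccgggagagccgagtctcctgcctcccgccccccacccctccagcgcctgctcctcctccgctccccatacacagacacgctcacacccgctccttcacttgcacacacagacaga
Cxcl1: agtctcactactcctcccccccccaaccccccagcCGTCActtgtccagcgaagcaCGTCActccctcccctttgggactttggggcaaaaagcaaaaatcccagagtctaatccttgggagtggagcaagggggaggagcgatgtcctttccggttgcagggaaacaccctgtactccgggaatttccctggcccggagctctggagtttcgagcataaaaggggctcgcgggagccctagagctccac

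Among genes higher in every pair that did not pass were regulators of growth, message decay and receptor signalling. Gadd45g and Btg2, which restrain the cell cycle, differed by 0.87, 0.95 and 0.90 and by 0.96, 1.03 and 0.88 (limma adjusted p 0.053 and 0.0531). Zfp36, which encodes tristetraprolin, a protein that speeds the decay of cytokine messages, differed by 1.01, 0.78 and 0.95. Errfi1, an inhibitor of the EGF receptor, differed by 0.79, 0.88 and 1.05. Each of these genes kept its groups apart in all samples, as did 5.08% of all tested genes in that direction.

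Most AP-1 subunits followed Fos and Fosb. Of the 11 tested, 10 were higher in all 3 pairs, against 15.8% of all tested genes, and 2 passed. The list median was 0.61, 0.61 and 0.46 at days 4, 6 and 9, where the median over all genes was -0.01, 0.00 and 0.00. Atf3, a stress-induced partner of Jun proteins, was at 9.41, 9.62 and 9.13 in the high samples and at 8.15, 7.84 and 7.99 in the low samples (adjusted p = 0.135). Jun, Junb and Jund differed by 0.72, 0.65 and 0.49 on average and Fosl1 and Fosl2 by 0.61 and 0.36. Batf, an AP-1 partner of lymphocytes, was the exception, with -0.26, 0.02 and 0.04. The third NR4A receptor, Nr4a2, differed by 0.81, 0.65 and 0.88.

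Of the other early response lists most had medians above 0, and NF-kappa B feedback genes had one near 0. Of 13 message decay and growth arrest genes 10 were higher in all pairs (day medians 0.66, 0.56 and 0.45) and 1 passed. Of 16 MAP kinase feedback genes 9 were, with 0 passing. Dusp1, which encodes a phosphatase that switches off MAP kinases, was at 12.60, 12.72 and 12.56 in the high samples and at 11.91, 11.93 and 11.73 in the low samples. Spry2 and Spry1, which dampen signals of growth factor receptors, differed by 0.67 and 0.50 on average. Of 11 EGR and KLF factors 7 were higher in all pairs and 2 lower, with Klf2 at 0.71, Egr1 at 0.61 and Klf10 at -0.26. Of 16 NF-kappa B feedback genes 5 were higher and 2 lower in all pairs, and 9 were of mixed sign, with day medians of 0.00, 0.07 and 0.07. Of 8 serum-inducible secreted genes 7 were higher and 1 lower in all pairs (day medians 0.38, 0.30 and 0.36). Of 23 heat shock genes 13 were higher in all pairs, with a median of only 0.08.

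Genes with a difference of at least 0.5 units in every pair numbered 51 higher and 34 lower. The 7 early response lists, which hold 0.507% of tested genes, held 18 of the 51 (35.3%), all 18 of them in the 5 lists other than the NF-kappa B and serum-inducible ones. Levels at least 1 unit higher in every pair were found in 7 genes, and at least 1 unit lower in 1, the interferon-inducible GTPase Tgtp1. These counts carry no test.

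The 3 genes Has1, Ugdh and Tnfaip6, which bear on hyaluronan, the large sugar polymer of loose connective tissue, were higher in every pair and were set together after their values were seen. Has1, a hyaluronan synthase, was at 7.68, 7.69 and 8.75 in the high samples and at 6.68, 6.76 and 6.87 in the low samples. Ugdh, which makes the UDP-glucuronic acid that the synthases use, was at 9.65, 9.21 and 9.97 in the high samples and at 8.31, 8.22 and 8.51 in the low samples. Tnfaip6, which encodes TSG-6, a protein that links proteins to hyaluronan, was at 9.60, 9.11 and 9.92 in the high samples and at 8.16, 8.26 and 8.20 in the low samples. The groups did not overlap in any of the 3, while the adjusted p was 0.226 for Has1, 0.107 for Ugdh and 0.173 for Tnfaip6. Higher levels without overlap were found in 5.08% of all tested genes. The other synthases differed unevenly, Has2 by 1.09, 0.11 and 0.90 and Has3 by 1.17, 0.48 and 0.27. Adamts1, a protease that cuts hyaluronan-bound proteoglycans, differed by 1.08, 0.70 and 1.08. The list of 32 elastic fibre and proteoglycan genes, which holds Has1, had no common direction, with 7 higher and 7 lower in all pairs and day medians of -0.11, -0.01 and 0.25.

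Several inflammatory cytokine and chemokine genes were higher in all pairs without passing. Cxcl2, which like Cxcl1 draws neutrophils, differed by 1.78, 0.76 and 1.48, Ccl3 by 0.85, 0.63 and 1.03 and Il1b, an inflammatory cytokine, by 1.38, 0.86 and 0.62. Ccl24, an eosinophil attractant, was at 7.11, 7.22 and 6.83 in the high samples and at 6.22, 6.25 and 6.10 in the low samples, and a dimmer array row of that gene differed by 2.08 on average. Il10, Osm and Socs3, which encode an anti-inflammatory cytokine, a cytokine of the interleukin 6 family and a feedback inhibitor of its signal, differed by 0.77, 0.55 and 0.59 with no overlap of groups. Il6 itself lay under the level limit and was not tested: it was at 6.21, 5.79 and 6.68 in the high samples and at 4.14, 4.61 and 4.70 in the low samples. Of the 7 tested genes of neutrophil-drawing chemokines and their receptors 2, Cxcl1 and Cxcl2, were higher and 1 lower in all pairs. The other 4 were of mixed sign (list median 0.21). Of the 15 tested CC chemokine genes 5 were higher and 3 lower in all pairs, so the family had no common direction. Of 13 interleukin 6 family genes 3 were higher and 3 lower in all pairs (list median 0.02). Of 14 interleukin 1 and TNF family genes 5 were higher and 2 lower (0.07). Of 10 genes of type 2 and type 17 cytokines 3 were higher and 1 lower (0.00). Over all tested genes these shares were 15.8% and 18.3%, and 5.08% were higher without overlap of groups.

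Markers of neutrophils and macrophages had no common direction beside these chemokines. Of 12 neutrophil genes 1 was higher and 1 lower in all pairs (day medians 0.23, 0.07 and -0.11), and of 21 macrophage genes 3 were higher and 2 lower (0.03, 0.15 and -0.08). Of 11 mast cell genes 2 were higher (-0.01, 0.40 and 0.24). Among the metallothioneins, metal-binding proteins induced by zinc and stress, Mt1 was at 10.35, 10.20 and 10.04 in the high samples and at 9.53, 9.56 and 8.95 in the low samples, and Mt2 differed by 0.89, 0.49 and 0.76. Neither passed (adjusted p 0.163 and 0.173).

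Around Shh, some further genes of follicle formation were higher by smaller amounts. Of 24 placode and matrix genes 13 were higher in all pairs and 0 lower, against 15.8% and 18.3% of all tested genes, shares that also apply to the list counts that follow. The day medians were 0.42, 0.12 and 0.23, and Shh alone passed. Msx2, a homeobox factor of the hair matrix, was at 6.81, 6.30 and 6.22 in the high samples and at 5.70, 5.74 and 5.54 in the low samples (adjusted p = 0.226). Lef1, a DNA-binding partner of beta-catenin, differed by 0.85, 0.23 and 0.26, and Edar, the ectodysplasin receptor of the placode, by 0.30, 0.12 and 0.37. Foxn1, a regulator of hair keratin genes, differed by 1.02, -0.15 and 0.05, so it was apart at day 4 alone. Other follicle lists differed less. Of 23 follicle stem cell genes 5 were higher, 2 lower and 16 of mixed sign (list median 0.07). Of 21 BMP signalling genes 4 were higher and 2 lower in all pairs (0.04). Of 19 reported regulators of hair neogenesis, Shh among them, 7 were higher and 3 lower (0.05).

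Of the 19 tested hedgehog genes 10 were higher and 1 lower in all pairs, with day medians of 0.00, 0.12 and 0.14, and Foxf1 was the lowest at -0.16 on average. Gli1 and Ptch1, which hedgehog signalling induces, differed by 0.42, 0.23 and 0.52 and by 0.70, 0.12 and 0.31, and Hhip, an inhibitor that binds the ligand, by 0.93, 0.21 and 0.74. In each of the 3 the groups did not overlap, and none of them passed (adjusted p from 0.318 to 0.449 over Gli1, Hhip and Ptch1). Of the 19 genes 5 were higher without overlap, against 5.08% of all tested genes.

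Of 24 dermal papilla genes 15 were higher and 2 lower in all pairs (day medians 0.21, 0.16 and 0.19). The follicle lists share members: Lef1 is in the papilla, placode, shaft and beta-catenin lists, and Ptch1 and Hhip are in the papilla and hedgehog lists. Wif1, a secreted Wnt inhibitor, was at 7.73, 6.73 and 6.84 in the high samples and at 6.07, 6.16 and 5.84 in the low samples. Fgf7, a growth factor that the papilla sends to keratinocytes, differed by 0.51, 0.71 and 0.23, and Sox2, a papilla transcription factor, by 0.23, 0.53 and 0.33. Crabp1, which binds retinoic acid in papilla and young dermal cells, ran the other way with -0.83, -0.08 and -0.61. Of 19 beta-catenin targets 12 were higher and 0 lower (medians 0.16, 0.15 and 0.26), among them Twist2 at 0.44 and Myc at 0.37, while Axin2 differed by -0.10, 0.34 and 0.42. Wnt ligands had no shared direction, with 2 of 17 higher and 1 lower in all pairs. Wnt7a and Fgf9 differed by 0.03 and 0.17 on average.

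Hair keratins differed widely at days 4 and 9 and less at day 6. Krt73, which belongs to the inner root sheath, was at 11.80, 9.59 and 9.74 in the high samples and at 8.58, 8.61 and 7.31 in the low samples, 4.65-fold higher on average (adjusted p = 0.279). Its differences were 3.23, 0.99 and 2.44 at days 4, 6 and 9, and the groups did not overlap. Krt25 and Krt28, of the same layer, differed by 2.59, 0.45 and 2.13 and by 2.64, 0.35 and 1.89, and Krt27 by 2.31, -0.04 and 2.26. Over the 18 inner root sheath and companion layer genes the day medians were 1.60, -0.13 and 1.62. Of these genes 3 were higher without overlap, against 5.08% of all tested genes.

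Genes of the hair shaft differed most at day 4 and least at day 6. Krt35, an early shaft keratin, was at 9.52, 7.37 and 7.57 in the high samples and at 6.63, 6.96 and 6.01 in the low samples. Dsg4, the desmosomal cadherin of the shaft, differed by 2.95, 0.57 and 1.79, and S100a3, a calcium-binding protein of the cuticle, by 2.02, 0.52 and 1.35. Hoxc13, a homeobox regulator of shaft keratin genes, differed by 1.26, 0.14 and 0.72. The 16 shaft genes had day medians of 1.92, 0.09 and 0.83, and 9 of them were higher in all pairs with 0 lower.

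Keratin-associated proteins, which cross-link the keratin of the shaft, also differed in size and direction between pairs. Over 36 tested genes the day medians were 2.06, -0.85 and 0.83, and 35, 3 and 32 of them were above 0 at days 4, 6 and 9, against 47.8%, 49.8% and 49.1% of all tested genes. Krtap7-1 was at 13.25, 8.07 and 7.30 in the high samples and at 10.98, 9.99 and 4.86 in the low samples. Krtap19-5 spanned more than 8 units, at 12.38, 5.57 and 4.00 in the high samples and at 10.46, 9.46 and 3.43 in the low samples. In both genes the level was lower at each later day in either group, and at day 6 the low sample was the higher. No gene of the 3 hair lists passed. Leaving out the day 6 pair gave list medians of 1.91 for the inner root sheath, 1.33 for the shaft and 1.45 for the keratin-associated proteins, and leaving out the day 4 pair gave 0.85, 0.29 and -0.03.

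**Figure D3:**
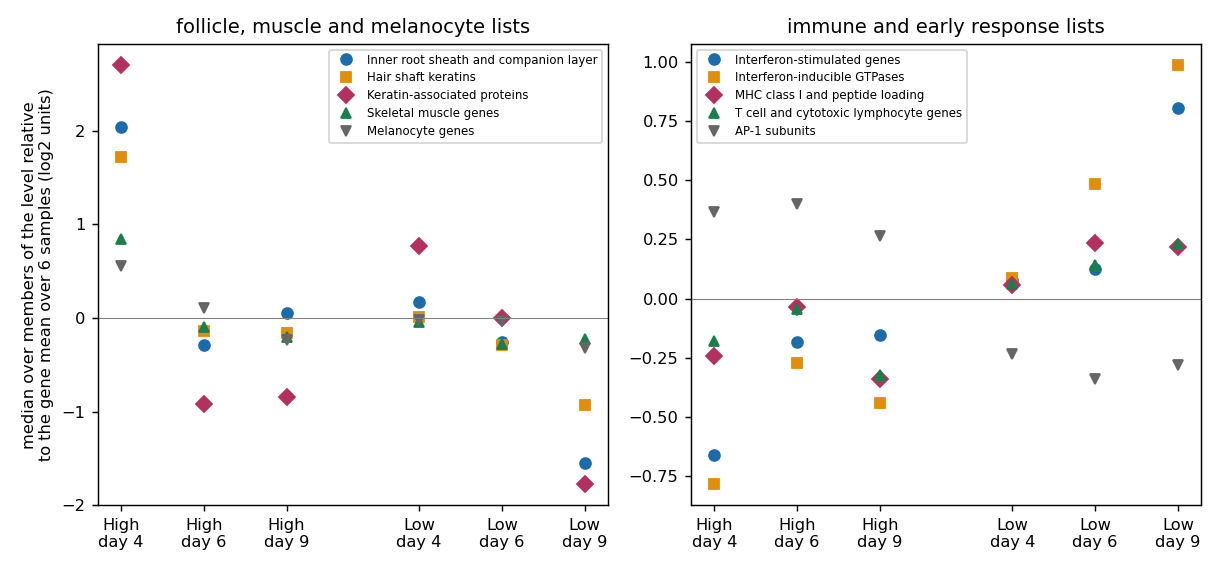
Median over list members of the level relative to each gene's mean over the 6 samples (log2 units), for 5 lists a panel, with high samples left of low samples. On the left, hair lists are highest in the high sample of day 4 and lowest in the low sample of day 9. On the right, the interferon lists lie below 0 in the 3 high samples and above 0 in the 3 low samples, and the AP-1 subunits do the reverse.

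The 3 pairs resembled each other to different degrees. Across the tested genes, the differences of day 4 correlated with those of day 9 at r = 0.301, those of day 6 with day 9 at 0.239, and those of day 4 with day 6 at 0.0585. Genes are not independent replicates, and each pair holds 1 sample a group. Differences of at least 1 unit were found in 157 genes higher and 61 lower at day 4 (1.03% and 0.402%), in 27 and 59 at day 6 (0.178% and 0.388%) and in 81 and 80 at day 9 (0.533% and 0.527%). Of the 49 genes at least 1 unit higher at both day 4 and day 9, 29 were in the 3 hair lists, which hold 0.461% of tested genes. Of the same 49 genes 25 were under 0.25 units or lower at day 6. Of the 17 genes at least 1 unit lower on both days, 11 were in 6 interferon lists, which hold 0.52% of tested genes. These 6 are the interferon-stimulated, GTPase, MHC class I, Schlafen, nucleic acid sensor and CXCR3 lists described below. AI506816 had the largest pattern of higher levels at days 4 and 9 alone, with 3.71, -0.02 and 3.05 in its brightest row. Its other rows differed by 0.12 and 1.56 on average.

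**Figure D4:**
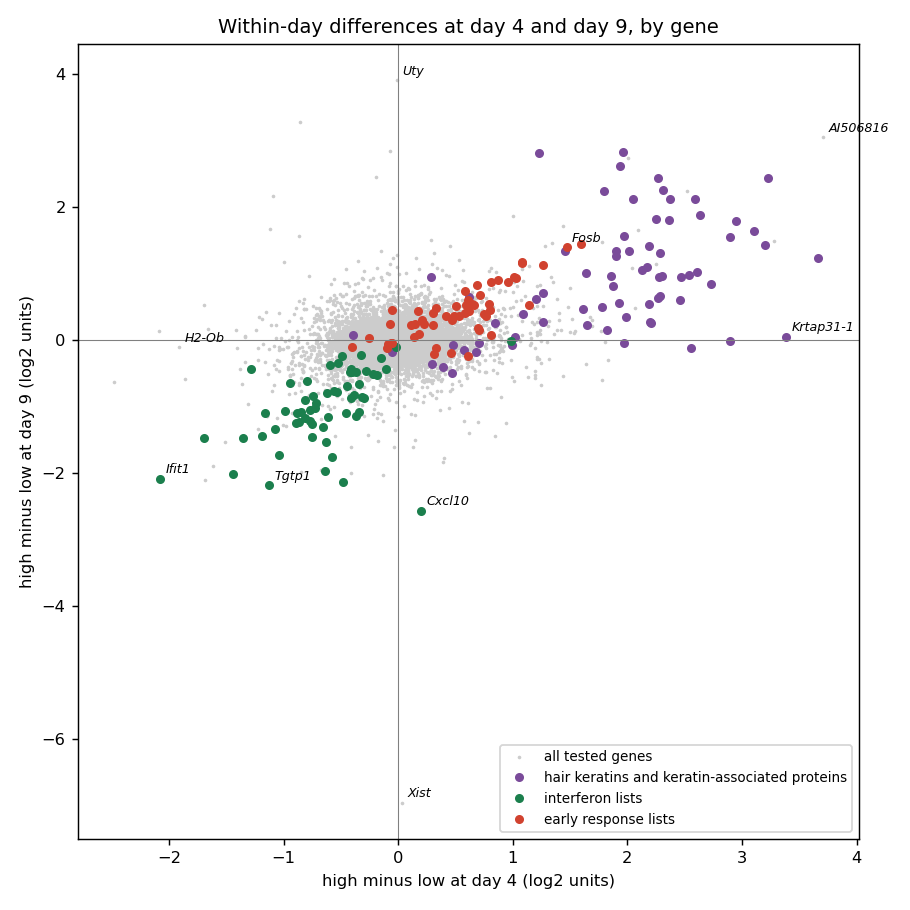
High minus low at day 4 (horizontal axis) and at day 9 (vertical axis) in log2 units for each tested gene, in grey, with 5 early response lists in red (AP-1, NR4A, EGR and KLF, message decay, MAP kinase feedback), hair lists in purple and 4 interferon lists in green. Hair genes lie at the upper right and interferon genes at the lower left, early response genes are mostly above 0 on both axes, and Xist (-6.95) and Uty (3.92) stand apart at day 9 with values near 0 at day 4.

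Large differences also lay side by side on the chromosomes. Runs of 3 or more neighbouring tested genes that differed by at least 1 unit in the same direction numbered 7 at day 4 (46 genes), 4 at day 6 (19 genes) and 6 at day 9 (20 genes), with gene order from RefSeq. All 7 runs of day 4 were hair keratins or keratin-associated proteins, the longest being 18 genes on chromosome 11. At day 6 the runs were 3 of keratin-associated proteins, lower, and the Skint genes on chromosome 4, higher. At day 9 the lower runs were Ifit2, Ifit3 and Ifit1 on chromosome 19 and Gbp5, Gbp7, Gbp3 and Gbp2 on chromosome 3, and one of the higher runs was Kdm5d, Eif2s3y and Uty on the Y chromosome.

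Most interferon-stimulated genes were lower in high-regeneration scars in every pair, although none of them passed the test. Of the 35 tested, 31 were lower in all 3 pairs, against 18.3% of all tested genes, 27 had no overlap between groups, against 6.18%, and 0 passed. The day medians were -0.74, -0.31 and -1.02. Leaving out the day 9 pair, in which sex differed, gave a list median of -0.51, and leaving out the day 4 pair gave -0.57. At an unadjusted p under 0.05 in limma, 30 of the 35 were lower, against 5.17% of all tested genes.

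Isg15, a ubiquitin-like protein, was at 5.72, 5.86 and 6.31 in the high samples and at 6.38, 6.94 and 7.61 in the low samples (adjusted p = 0.173). Stat2, which carries the type I interferon signal to the nucleus, was at 7.70, 8.16 and 8.35 in the high samples and at 8.78, 8.83 and 9.68 in the low samples. Irf7, the factor that amplifies interferon production, differed by -0.80, -0.48 and -0.61. Levels in both groups tended to be higher at later days, and in these 3 genes the groups did not overlap. Other members were uneven over days: Ifit1, which binds foreign RNA caps, differed by -2.07, -0.39 and -2.08, Usp18, which removes ISG15, by -1.70, -0.38 and -1.47, and Rsad2, the antiviral enzyme viperin, by -1.19, -0.04 and -1.44. Ifitm3, which blocks virus entry, differed by only -0.03 on average.

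Interferon-inducible GTPases, which attack the vacuoles of intracellular microbes, were lower without exception. All 7 tested were lower in all pairs, with day medians of -0.86, -0.75 and -1.44, and 0 passed. Tgtp1 was at 7.72, 8.23 and 8.0 in the high samples and at 8.85, 9.43 and 10.17 in the low samples (adjusted p = 0.207), and its other row differed by -0.97. Gbp7 was at 7.90, 8.26 and 8.29 in the high samples and at 8.79, 9.08 and 9.54 in the low samples (adjusted p = 0.135). Gbp2 and Irgm1 differed by -1.16 and -0.92 on average. Leaving out the day 9 pair gave a list median of -0.75.

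The promoter windows of these genes (RefSeq, GRCm38.p6) are shown with capitals marking GAAANNGAAA on either strand (TTTCNNTTTC on the printed strand), the repeat found in interferon-stimulated response elements. It is in 6 of the 7 GTPase windows and in 7 of the 30 windows of interferon-stimulated genes (23.3%). Of the MHC class I and peptide loading windows 1 of 11 (9.09%) holds it. The share is 2.41% of the windows of tested genes and 2.98% of all RefSeq windows. The windows shown are chr4:156200819-156201068 on the minus strand for Isg15, chr19:34640639-34640888 on the plus strand for Ifit1, chr3:142620413-142620662 on the plus strand for Gbp2 and chr11:48992247-48992496 on the minus strand for Tgtp1. Overlapping copies in Isg15 run together in its capitals. None of these 4 windows holds TGACG, but among windows read and not shown Rsad2 holds 1 copy, Irgm1 2 and Ifit3 0. Over the interferon-stimulated, GTPase and MHC class I lists together 22.9% of windows hold TGACG, against 24.1% of the windows of tested genes. The lists differ, with 16.7% of interferon-stimulated, 14.3% of GTPase and 45.5% of MHC class I windows.
Isg15: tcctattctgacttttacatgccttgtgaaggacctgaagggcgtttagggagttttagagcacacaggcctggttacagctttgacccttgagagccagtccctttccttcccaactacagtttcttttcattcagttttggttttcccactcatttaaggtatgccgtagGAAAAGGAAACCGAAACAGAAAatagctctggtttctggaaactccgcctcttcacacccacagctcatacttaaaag
Ifit1: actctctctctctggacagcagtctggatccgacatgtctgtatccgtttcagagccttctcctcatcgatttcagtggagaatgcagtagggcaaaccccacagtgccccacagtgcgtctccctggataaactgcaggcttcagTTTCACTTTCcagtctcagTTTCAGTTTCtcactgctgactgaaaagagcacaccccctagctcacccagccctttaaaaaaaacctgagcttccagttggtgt
Gbp2: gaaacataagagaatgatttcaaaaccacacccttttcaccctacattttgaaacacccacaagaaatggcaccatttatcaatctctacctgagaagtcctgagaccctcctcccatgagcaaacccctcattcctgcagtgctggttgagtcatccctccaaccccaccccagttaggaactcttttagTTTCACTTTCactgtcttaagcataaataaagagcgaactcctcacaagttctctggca
Tgtp1: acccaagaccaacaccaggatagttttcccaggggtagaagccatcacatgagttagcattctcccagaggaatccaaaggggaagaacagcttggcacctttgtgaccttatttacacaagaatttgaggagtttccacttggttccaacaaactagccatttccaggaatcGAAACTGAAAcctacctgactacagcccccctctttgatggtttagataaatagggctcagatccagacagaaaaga

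Genes that display peptides to T cells were lower by smaller amounts. Of 14 MHC class I and peptide loading genes 13 were lower in all pairs (day medians -0.35, -0.22 and -0.49). Tap1 and Tap2, which carry peptides into the endoplasmic reticulum, differed by -0.69 and -0.48, and B2m, the light chain of class I molecules, by -0.42, -0.15 and -0.48. The inducible proteasome subunits Psmb9, Psmb8 and Psmb10 differed by -0.60, -0.48 and -0.29, whereas the constitutive subunit Psmb5 differed by -0.10, and the 35 proteasome genes had a median of -0.01. H2-Q10 differed by -1.35, -0.59 and -1.46 in its brighter row and by 0.00 on average in its dimmer one.

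Sensors of foreign nucleic acid and the Schlafen genes behaved alike in direction. Of 16 sensor genes 11 were lower in all pairs (medians -0.52, -0.15 and -0.43), with Zbp1, a sensor of Z-form nucleic acid, at -0.99, -0.59 and -1.07 and Dhx58, a helicase of the RIG-I family, at -0.85, -0.42 and -1.07. Tlr3, a receptor for double-stranded RNA, differed by -0.51, -0.03 and -0.30. Of 7 Schlafens 5 were lower in all pairs, with Slfn4 at -0.74, -0.70 and -1.05. Interferon and receptor genes themselves differed by small amounts, with a list median of -0.13. Of 11 such genes 8 were above the level limit and tested, 5 of them lower in all pairs and 0 higher. Ifnb1 differed by -0.19, Ifnar1 by -0.08, Ifnar2 by -0.10 and Ifngr2 by -0.14 on average.

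CXCR3 ligands, which interferon induces and which draw T cells, were lower mainly at day 9. Cxcl9 was at 8.42, 9.17 and 8.39 in the high samples and at 9.06, 10.01 and 10.34 in the low samples, and Cxcl11 differed by -0.48, -1.37 and -2.13. Cxcl10 was at 7.37, 7.34 and 6.40 in the high samples and at 7.17, 7.25 and 8.96 in the low samples, so it was lower in the day 9 pair only, the pair in which sex differed.

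T cell and cytotoxic lymphocyte genes were lower alongside the interferon lists. Of 21 tested genes 14 were lower in all pairs and 0 higher, against 18.3% and 15.8% of all tested genes (medians -0.24, -0.06 and -0.66), and 0 passed. Leaving out the day 9 pair, in which sex differed, gave a list median of -0.23. Of 6 dendritic epidermal T cell genes, a list that includes the keratinocyte genes Skint3 and Skint9, 1 was lower and 0 higher in all pairs (list median 0.04). Cd3g, a chain of the T cell receptor complex, was at 8.26, 8.37 and 7.47 in the high samples and at 8.81, 8.85 and 8.90 in the low samples. Gzmb, a granule protease of killer cells, was at 5.75, 6.44 and 5.89 in the high samples and at 6.60, 7.02 and 7.86 in the low samples. Icos and Il2rb, a costimulatory receptor and a receptor chain for interleukins 2 and 15, differed by -0.69 and -0.65, Cd4 by -0.22 and Cd8a by -0.20, 0.05 and -0.95. Ptprc, the pan-leukocyte marker CD45, differed by -0.54, -0.08 and -0.63. Whether cell number had a part in the interferon differences was not tested.

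**Figure D5:**
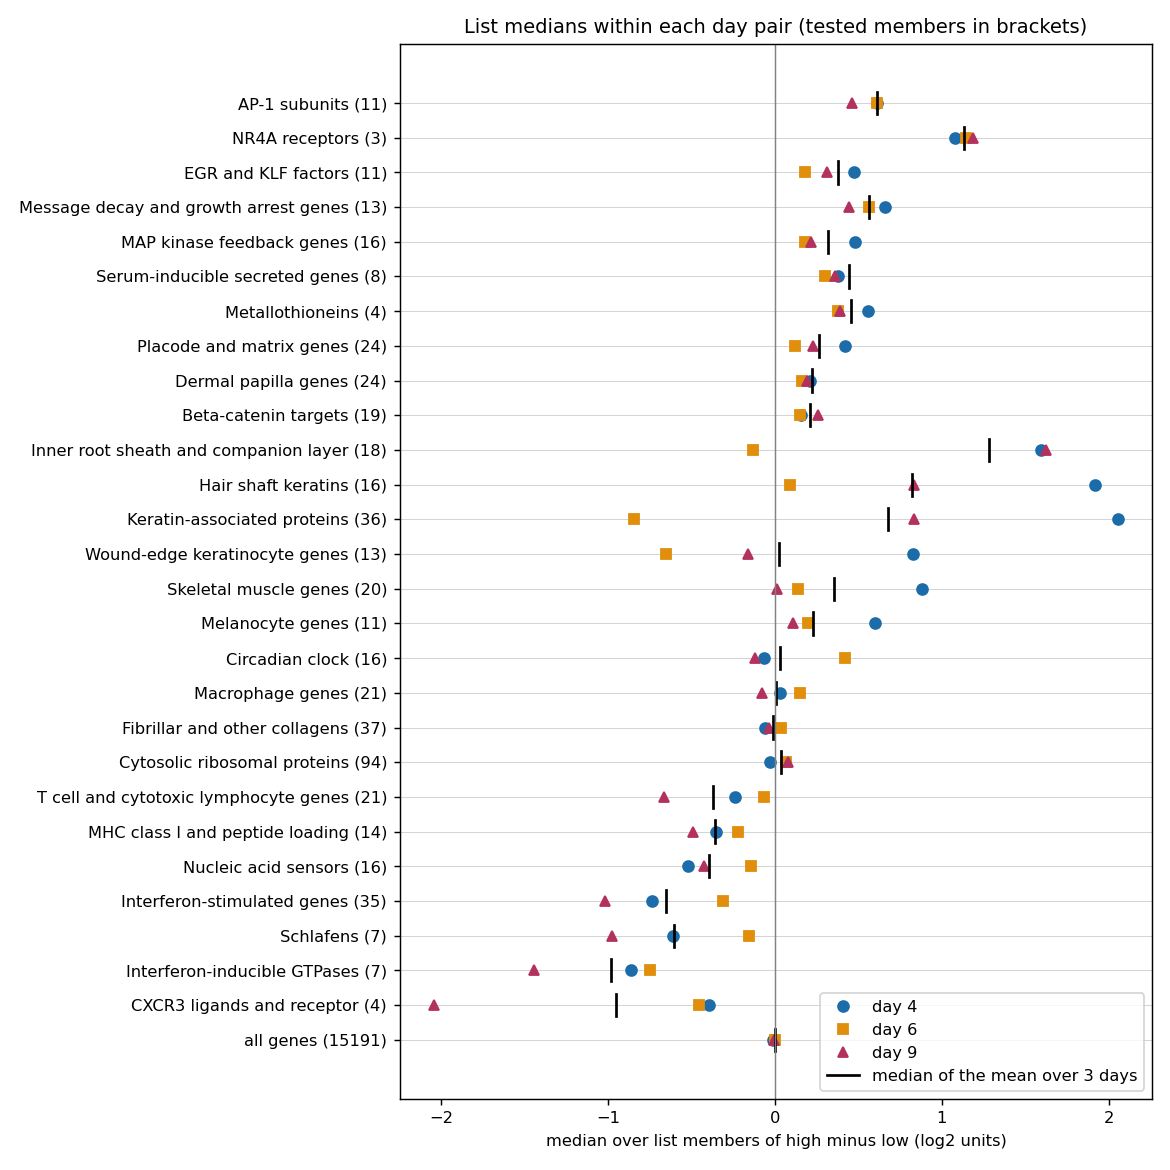
Median over list members of high minus low in log2 units at day 4 (blue circles), day 6 (orange squares) and day 9 (purple-red triangles) for 27 lists and for all genes, with the median of the mean over days as a black bar and the number of tested members in brackets. The 6 early response lists drawn, which leave out NF-kappa B feedback genes, lie right of 0 at all 3 days, interferon lists left of 0 at all 3 days, and hair lists far right of 0 at days 4 and 9 with day 6 near or left of 0.

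Among other genes lower in every pair were several outside the interferon lists. Ecrg4, which encodes a secreted peptide precursor, was at 7.06, 7.67 and 7.72 in the high samples and at 8.43, 8.78 and 8.37 in the low samples (adjusted p = 0.19). Fetub, the protease inhibitor fetuin B, differed by -0.75, -1.38 and -0.87, and Gpr33, an orphan receptor of the chemoattractant class, by -1.10, -0.74 and -0.77. Lsr, a lipoprotein receptor that also sits at tricellular junctions, differed by -0.83 on average in its brightest row and by -0.22 and 0.13 in the others, so its rows disagree. Tslp, a keratinocyte cytokine, was at 5.39, 5.98 and 6.87 in the high samples and at 6.73, 6.63 and 7.19 in the low samples.

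The Serpina3 family of protease inhibitors was split. Serpina3j was at 9.72, 9.94 and 6.79 in the high samples and at 11.41, 10.76 and 8.89 in the low samples, and its other row differed by -0.70. Serpina3b differed by -1.62, -0.49 and -1.89 and Serpina3f by -0.71, -1.74 and -0.26, whereas Serpina3n differed by 1.21, 0.09 and 0.82. Of 36 tested Hox genes, which record body position, 11 were lower and 4 higher in all pairs, against 18.3% and 15.8% of all genes. Hoxc6 differed by -0.39, -0.27 and -0.33, Hoxb9 by -0.36 on average and Hoxb13 by 0.26.

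Some lists differed more at one day than at the others. Wound-edge keratinocyte genes, which epidermis expresses while it migrates, had medians of 0.82, -0.65 and -0.16 over 13 genes, with Krt16 at 11.86, 10.29 and 11.42 in the high samples and at 10.73, 11.86 and 11.97 in the low samples. Of 20 skeletal muscle genes 10 were higher in all pairs and 0 lower (day medians 0.88, 0.14 and 0.01), Mb, the oxygen store myoglobin, being at 7.86, 6.46 and 6.21 in the high samples and at 6.09, 6.01 and 6.07 in the low samples. Of 11 melanocyte genes 8 were higher in all pairs and 0 lower (day medians 0.60, 0.20 and 0.11), with Dct, a pigment enzyme, at 8.72, 6.98 and 6.25 in the high samples and at 7.73, 6.77 and 5.88 in the low samples. In the muscle and melanocyte lists the high sample of day 4 was again the one that stood apart, and Dct was lower at each later day in both groups.

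Of 16 clock genes 14 were above 0 at day 6, against 49.8% of all tested genes, with a median of 0.42, and the medians of days 4 and 9 were -0.07 and -0.12. Dbp, Nr1d2 and Per3, which the core clock drives in one phase, differed by 1.20, 0.84 and 0.89 at day 6, against -0.60, -0.40 and -0.54 at day 4. Arntl and Npas2, which peak in the opposite phase, were below 0 and differed by -0.69 and -0.54 at day 6, against 0.37 and 0.06 at day 4. The low sample of day 6 held the lowest Dbp of the 6 samples (8.19, against 8.50 to 9.66) and the highest Arntl (7.97, against 7.06 to 7.66). The hour of biopsy is not in the labels, and its part in the differences of the day 6 pair was not tested. Nfil3, a clock-linked repressor that cytokines also induce, differed by 1.04, 0.24 and 0.82.

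Mitosis and DNA replication genes were slightly higher, 16 of 35 in all pairs with 0 lower, against 15.8% and 18.3% of all tested genes, and medians of 0.30, 0.08 and 0.05, with Ccna2, a cyclin of the S and G2 phases, at 0.20 and Mki67 at 0.40, 0.04 and 0.04. Many lists showed next to no difference. The medians were -0.01 for 37 collagens, 0.01 for 22 genes of TGF-beta signalling and myofibroblasts, -0.02 for 21 genes of glycolysis, 0.02 for 21 of the citric acid cycle, 0.04 for 94 with symbols of cytosolic ribosomal proteins, 0.01 for 34 NADH dehydrogenase subunits, -0.01 for 22 sebaceous gland genes and -0.04 for 25 endothelial genes. None of these lists held a gene that passed.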

How the data were processed

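The deposited values were log2 levels per transcript cluster of an Affymetrix exon array, a scale read from their range, 2.03 to 14.58, since no label states it. The submitters' processing notes name Affymetrix Expression Console and PLIER, with no version or role, while the build, background correction and filters are not stated there (not given in the sources used here). Per the labels' protocols, biopsies were stored in RNAlater and RNA was extracted with a fibrous tissue kit, amplified with random primers and labelled with biotin.

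Array medians over the 53145 rows lay between 6.04 and 6.10, closer than the limit of 0.1, so values were used as deposited. Rows were named from the platform annotation: 25466 had 1 symbol, 2299 several and 25380 none. The row of highest mean stood for each of 20255 genes, of which 3090 had more than 1 row. Rows with several symbols or none were set apart. The annotation's symbols matched a RefSeq table of GRCm38.p6 for 20057 genes.

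High and low regeneration were compared in limma 3.58.1 (R 4.3.3; lmFit and eBayes, two-sided) with day as a block and 2 residual degrees of freedom, after leaving out the 25% of genes of lowest mean, and p-values were Benjamini-Hochberg adjusted over 15191 genes. The design text states that each pair was taken at its own date. Correlations of deviations from the group means were 0.5, 0.112 and 0.56 for the pairs of days 4, 6 and 9 and -0.491 to 0.141 for samples of different days. The day 6 value lies within that range. The labels give the samples of a pair the same day, so day was kept as the block. The limma script was also run on simulated data with known differences. Those data held no day effect and no correlation within pairs, so that run does not cover samples paired like these. Labels name no separate cultures or litters, so p-values reflect only how these 6 samples vary, in part perhaps technically, and the number of arrays limits the precision. "Overlap" compares the 3 high with the 3 low values of a gene.

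The 77 gene lists and 30 families by symbol, of which 105 had tested members, the genes named and the comparison itself were chosen with earlier results of these data known, so counts over lists are descriptions without a test. Named were genes that passed, up to 15 genes a direction with the largest smallest difference over pairs, up to 12 a direction with the largest mean difference, up to 6 a direction with a like difference at days 4 and 9 but not 6, up to 5 a day and direction with the largest difference of that day, up to 6 members of lowest p and the members of largest and smallest difference in each list, and 12 set genes such as Shh, Il6, Tlr3, Wnt7a, Fgf9 and Xist. Outside this rule, Arntl, B2m, Cd4, Cd8a, Col1a1, Dbp, Fosl2, Foxn1, H2-Ea, Ifit2, Ifnar1, Jund, Krt1, Krt10, Mki67, Npas2, Nr1d2, Per3, Ptprc and the genes named in a plot alone were chosen after their values were seen. Motifs were sought on both strands of the 250 bases before RefSeq starts. Alternatives were quantile normalization, other filters, the mean of all rows of a gene, no block, each pair left out, and eBayes with a trend and robust fit.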

Additional observations from a re-analysis of the deposited data

Results flagged for a closer look

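Outside the genes with a single symbol, 18110 rows with several symbols or none were tested together with the named rows, and limma called 0 of them (lowest adjusted p 0.449; 126 rows with several symbols and 1891 with none had an unadjusted p under 0.05). In that fit over all rows limma called 0 of the rows with 1 symbol too, with 1535 at an unadjusted p under 0.05. Of the rows without a single symbol 30.3% had 1 sign in all pairs, against 33.7% of rows with 1 symbol. In 10 of them the samples of every pair were at least 1 log2 unit apart, and these signals lie outside the gene comparison. Higher were 6810111 (1.32 on average), 6774022 (1.34), 7003412 (1.19) and 6807217 (1.84). Lower were 7008153 (-1.96), 6996410 (-1.21), 7004567 (-1.49), 6861308 (-1.31), 7009426 (-1.91) and 6810382 (-1.44). The first of the lower rows, 7008153, was at 6.89, 8.56 and 8.28 in the high samples of days 4, 6 and 9 and at 8.78, 10.31 and 10.51 in the low samples. Row 6861308 carries the symbols Gm4951, Iigp1 and F830016B08Rik, and row 7009426 carries Gbp6, Gbp10 and Gbp11, of the family of Gbp2 and Gbp7. Neither row names a single gene, and the others carry no symbol in the annotation used.

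List medians pointed in opposite directions at different days, by at least 0.5 units each way, in 3 lists with 5 or more tested members. They were 0.82 at day 4 and -0.65 at day 6 for wound-edge keratinocyte genes, 3.55 at day 6 and -0.59 at day 4 for the Skint family, and 2.06 at day 4 and -0.85 at day 6 for keratin-associated proteins. With 1 sample a group at each day, the difference between days was not tested. Leaving out the day 6 pair gave medians of 0.29, -0.24 and 1.45 for these 3 lists.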

How the results depend on the processing

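Of 15191 genes 8 passed in limma. The count was 9 with the lowest 50% of genes left out, 11 with the mean of all rows of a gene, and 9 with a trended and robust fit. It was 0 after quantile normalization and 0 without a filter. Without the replicate block that pairs samples by day it was 6, 5 of them shared with the 8, while Ptgs2, Nr4a3 and Shh had adjusted p-values of 0.247, 0.0551 and 0.118. Leaving out 1 day pair gave 0 to 35 genes, the 35 (25 higher, 10 lower) without day 6, and the cause was not tested. Leaving out a pair also leaves fewer samples. Counts of lists with a median of at least 0.25 in size ranged from 23 to 29 over all alternatives, with 25 as reported.

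Directions turned with the pair left out in genes whose pairs disagreed, and the cause was not tested. Leaving out 1 pair in turn gave differences of -0.25 to 0.28 for Arntl, -0.12 to 0.029 for Batf, -0.041 to 0.019 for Col1a1, -1.24 to 0.14 for Cxcl10, -0.52 to 0.38 for Dbp, -0.050 to 0.54 for Foxn1, -0.057 to 0.0009 for Ifitm3, -1.06 to 0.29 for Krt16, -1.66 to 1.25 for Krtap19-5, -0.24 to 0.26 for Npas2, -0.35 to 0.28 for Nr1d2, -0.56 to 0.18 for Per3, -0.64 to 2.81 for Skint3 and -0.020 to 0.092 for Wnt7a. It gave -0.11 to 1.39 for Eif2s3y, -0.12 to 1.21 for Kdm5d and -0.20 to 1.95 for Uty, in each case negative without day 9. The median of the keratin-associated proteins ranged from -0.030 to 1.45. The mean of all rows turned Ifnar1 to 0.057, and quantile normalization turned Npas2 to 0.0079. With 3 samples a group and 2 residual degrees of freedom, a gene that did not pass is not shown to be alike in both groups.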
